A study of Mus musculus with 6 samples.

Results

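The complement components and regulators described here were 9 genes chosen by symbol, C1qa, C1qb, C1qc, C1ra, C3, C4b, C3ar1, Serping1 and Cd55, out of 35275 genes in the deposited tables of spinal cord RNA. All 9 were matched by their Ensembl identifier, and all 9 passed the filter on low counts. Bulk RNA-seq was performed on whole spinal cord of adult C57BL/6 mice, 3 Sox2 cKO mice that carry mGfap-Cre and 2 floxed copies of Sox2 (Sox2 fl/fl), and 3 control (Ctrl) mice. The Cre recombinase is driven by a mouse Gfap promoter, which limits the deletion to cells where that promoter has been active, mainly astrocytes, whereas the RNA came from all cells of the cord. The sample labels give Ctrl as mGfap-Cre with wild-type Sox2 at postnatal day 90, the series' design text allows mGfap-Cre or Sox2 fl/fl at postnatal day 80, and the study's methods name Sox2 fl/fl littermates. Whether every Ctrl mouse carried Cre is thus not settled by these sources. Each library came from 1 mouse. Sox2 itself was listed at 9.60, 6.94 and 13.5 FPKM in Ctrl libraries 2, 4 and 6 and at 1.63, 1.35 and 1.47 FPKM in Sox2 cKO libraries 1, 3 and 5 (log2 fold change -2.86, adjusted p = 0.00096 in edgeR).

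Complement is a cascade of blood and tissue proteins that tags microbes, debris and, in the nervous system, synapses. The classical pathway begins when C1q, built from the products of C1qa, C1qb and C1qc, binds a target and activates the proteases C1r and C1s, which cleave C4 and lead to the cleavage of C3. C3 fragments coat the target and release the peptide C3a, whose receptor is the product of C3ar1. C1 inhibitor, encoded by Serping1, blocks C1r and C1s, and CD55, also called decay-accelerating factor, takes apart the enzymes that cleave C3 on the surface of host cells. In the central nervous system C1q is made mostly by microglia, while C3 and C4 can be made by astrocytes and other glia, and C1 inhibitor is abundant in fibroblasts of the meninges. In bulk RNA, fewer cells of a type and less RNA per cell cannot be told apart.

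The 3 C1q genes lie side by side on chromosome 4 of mm10 and are read from the same strand. C1qa spans chr4:136895917-136898803, C1qc chr4:136889804-136893065 and C1qb chr4:136880129-136886187, all on the minus strand, with 2851 bases between C1qa and C1qc and 3616 bases between C1qc and C1qb. The other members are spread over the genome, with C1ra at chr6:124512405-124523443 on the plus strand and C3ar1 at chr6:122847138-122856161 on the minus strand. C3 (chr17:57203970-57228136) and C4b (chr17:34728380-34743882) share chromosome 17, and Serping1 (chr2:84765387-84775444) and Cd55 (chr1:130439027-130462744) stand alone, these 4 all on the minus strand. Each is a protein-coding gene in the GENCODE annotation. RefSeq promoters of build GRCm38.p6, from 250 bases before to 50 bases after the annotated start, were at hand for 6 of the 9 (C1qb, C1qc, C1ra, C3, C3ar1 and Cd55). Those of C1qb, C1qc and Cd55 are shown because these were the members called higher in Sox2 cKO cord. They are the windows chr4:136886151-136886450, chr4:136892865-136893164 and chr1:130462695-130462994 on the minus strand, written 5′ to 3′ along the gene, with capitals for the core that the myeloid factor PU.1 binds, GAGGAA, on either strand.
C1qb: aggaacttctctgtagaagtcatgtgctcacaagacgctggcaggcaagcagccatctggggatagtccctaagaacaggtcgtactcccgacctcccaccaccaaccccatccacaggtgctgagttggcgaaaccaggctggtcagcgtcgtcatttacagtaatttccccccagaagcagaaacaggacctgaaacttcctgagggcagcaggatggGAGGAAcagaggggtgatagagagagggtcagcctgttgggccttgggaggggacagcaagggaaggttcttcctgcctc
C1qc: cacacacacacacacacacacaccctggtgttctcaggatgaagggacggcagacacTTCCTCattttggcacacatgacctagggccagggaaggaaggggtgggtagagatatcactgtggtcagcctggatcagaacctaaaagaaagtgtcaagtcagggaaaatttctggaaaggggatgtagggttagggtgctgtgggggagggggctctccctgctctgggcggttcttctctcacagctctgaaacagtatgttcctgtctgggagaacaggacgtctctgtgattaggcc
Cd55: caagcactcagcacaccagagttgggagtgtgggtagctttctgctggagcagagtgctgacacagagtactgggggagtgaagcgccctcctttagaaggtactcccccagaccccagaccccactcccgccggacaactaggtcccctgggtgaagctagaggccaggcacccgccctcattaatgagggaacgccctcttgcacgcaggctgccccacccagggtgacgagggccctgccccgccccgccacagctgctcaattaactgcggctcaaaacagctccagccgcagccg
The C1qb window holds the PU.1 core at base -30 from the start site, and the C1qc window holds it on the other strand, as TTCCTC, at base -193. The Cd55 window has no match. Over all 6 promoters the core occurred in 3 (C1qb, C1qc and C1ra), against 28.3% of 32851 RefSeq promoters of the same length, both strands searched. The SOX core ACAAAG, found in 18.7% of those promoters, and the core of interferon response elements, GAAANNGAA, found in 8.56%, were in 0 of the 6. The core of STAT sites, TTCNNNGAA (8.3%), occurred in C1ra alone at base 33, and the TATA box, TATAAA (13.6%), occurred in C3 at base 15 and in C3ar1 at base -235. No match of 1 motif overlapped another in these windows. A match is a run of letters and not a measured binding site.

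Read counts per library were between 21507911 and 28392184, and a count fit across 16137 genes with edgeR called 1962 genes higher (12.2%) and 2008 lower (12.4%) in Sox2 cKO at an adjusted p below 0.05. Libraries stood apart in ways that touched the complement genes. In normalized counts Sox2 cKO library 1 was the highest of the 6 libraries for 7 of the 9 members (77.8%), against 27.2% of all genes tested. Ctrl library 6 was the lowest for 4 of 9 members (44.4%), against 24.2% of all genes, and for 10 of 12 fibroblast markers, whose summed level was 68.4 FPKM there and 168 to 233 FPKM in the other 5. Fold changes also followed gene length, with a Spearman rho of -0.48 across the genes tested, which are not independent replicates. The fits of the complement genes were therefore repeated without these libraries, and with a correction that takes each library's trend with length out of the counts.

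The members ranged from under 1 FPKM (reads per kilobase of gene, scaled to library size) to about 80 FPKM. In Ctrl cord the order of mean levels was C3 at 37.0 ± 5.27 FPKM, C1qa at 34.5 ± 5.87, C1qb at 28.6 ± 6.51, C1qc at 22.1 ± 3.07, C4b at 18.4 ± 1.36, Serping1 at 9.48 ± 5.06, Cd55 at 3.33 ± 0.78, C1ra at 0.566 ± 0.32 and C3ar1 at 0.507 ± 0.0216 (SD, n = 3). The libraries of C3 and C1qa, C1qa and C1qb, C1qb and C1qc, Serping1 and Cd55, and C1ra and C3ar1 overlapped, so the order within these pairs was not separated by the spread. In Sox2 cKO cord C1qa (57.2 ± 21.6 FPKM) and C1qb (51.8 ± 22.2 FPKM) had higher means than C3 (44.9 ± 9.21 FPKM), and Serping1 (18.2 ± 3.55 FPKM) had a higher mean than C4b (15.6 ± 4.58 FPKM). In both cases the libraries overlapped.

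**Figure D1:**
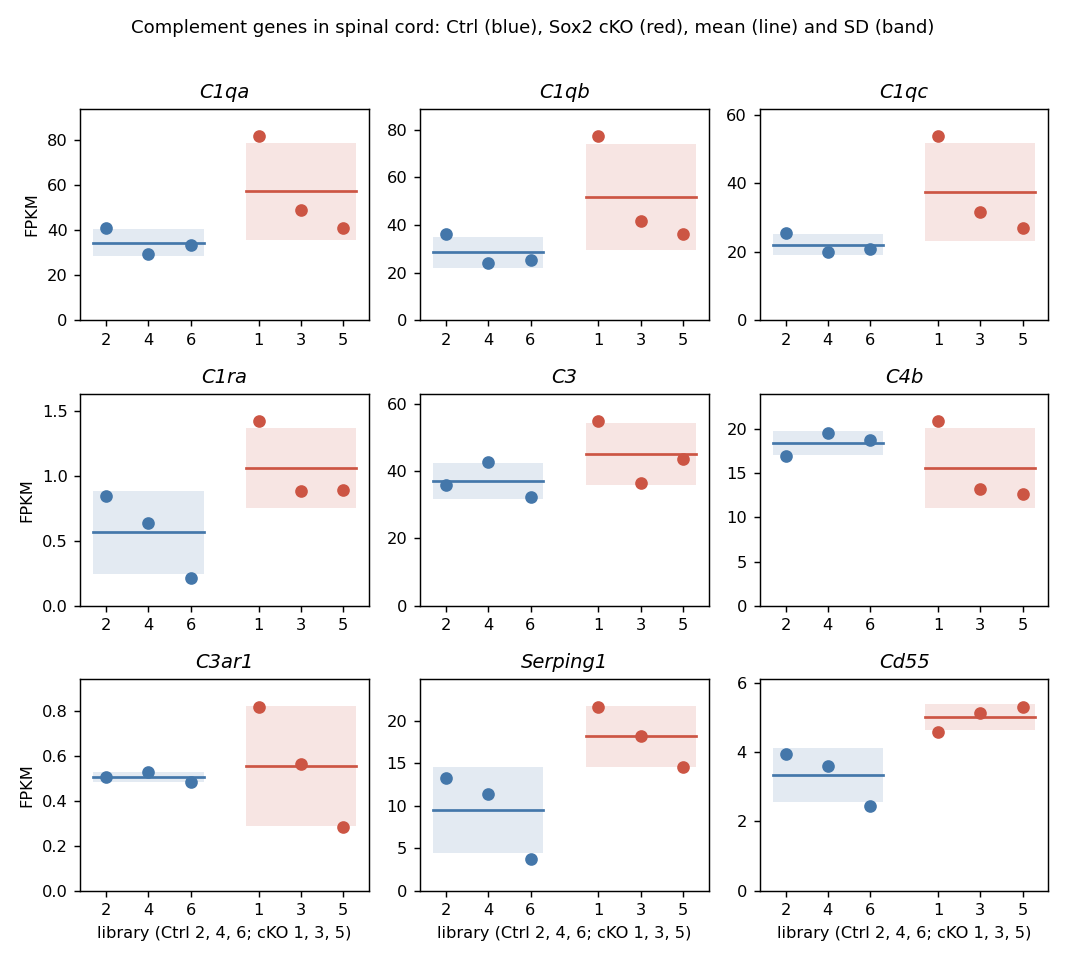
Level of each complement gene (FPKM, vertical axis from 0) in the 3 Ctrl libraries (blue; 2, 4, 6) and the 3 Sox2 cKO libraries (red; 1, 3, 5), with group mean (line) and SD (band). Sox2 cKO library 1 is the highest point for 8 of the genes on this scale, all but Cd55, and Ctrl library 6 lies far below the other Ctrl libraries for C1ra and Serping1.

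In the comparison of Sox2 cKO with Ctrl cord, 3 of the 9 members were called higher (C1qb, C1qc and Cd55) and 0 lower, beside 12.2% higher and 12.4% lower among all genes. At an unadjusted p below 0.05 edgeR counted 5 members higher and 0 lower, and DESeq2 5 higher and 1 lower. The members had a median log2 fold change of 0.62, against 0.02 over all genes tested. The levels of 4 members did not overlap between groups in normalized counts (C1qc, C1ra, Serping1 and Cd55, all higher in Sox2 cKO), where 22.6% of all genes were higher and 22.1% were lower without overlap. DESeq2, the study's own tool, also called 3 higher and 0 lower, C1qa, C1qc and Cd55, where it called 12.9% of its tested genes higher. The calls for the members lay close to the threshold. With edgeR, 0 of 9 were called higher without Ctrl library 4, without Ctrl library 6, without Sox2 cKO library 1 or without Sox2 cKO library 3, where 0.0794%, 3.64%, 0.0182% and 4.27% of all genes were called higher. The number was 5 without Ctrl library 2 (C1qa, C1qb, C1qc, Serping1 and Cd55; 18.3% of all genes) and 3 without Sox2 cKO library 5 (C1qa, C1qb and C1qc; 8.13% of all genes). At an unadjusted p below 0.05, edgeR counted 5 members higher without Ctrl library 6 and 3 higher and 1 lower without Sox2 cKO library 1. Of all genes, 5035 of 16552 and 4945 of 16482 had an unadjusted p below 0.05 in these fits, both directions together. DESeq2 called 1 member higher in each of these fits, where it called 1009 of 13848 and 966 of 13370 genes higher. Without Sox2 cKO library 1 it also called 1 member lower, C4b, where it called 1376 of 13370 genes lower.

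Of the genes for C1q, the recognition part of the classical pathway, C1qb and C1qc were called higher in Sox2 cKO cord, at 1.69-fold and 1.57-fold, and C1qa, at 1.54-fold, lay just outside the threshold. The highest value of each was in Sox2 cKO library 1. C1qa, which encodes the A chain, was listed at 40.8, 29.2 and 33.5 FPKM in Ctrl libraries 2, 4 and 6 and at 81.7, 48.9 and 40.9 FPKM in Sox2 cKO libraries 1, 3 and 5. Sox2 cKO library 1 was well above the other 5, while the lowest Sox2 cKO library and the highest Ctrl library were almost the same. The difference was 0.62 on the log2 scale (standard error, SE, 0.21; adjusted p = 0.054 in edgeR), and DESeq2 called it (adjusted p = 0.011).

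C1qb, the gene of the B chain, was listed at 36.0, 24.2 and 25.5 FPKM in Ctrl and at 77.3, 41.8 and 36.4 FPKM in Sox2 cKO libraries. After TMM normalization of the counts, Ctrl library 2 (39.5 CPM, counts scaled to library size) and Sox2 cKO library 5 (39.2 CPM) overlapped. The fitted log2 fold change was 0.75 (SE 0.24, adjusted p = 0.046 in edgeR), which DESeq2 did not call (adjusted p = 0.10). C1qc, the gene of the C chain, was listed at 25.6, 19.8 and 20.9 FPKM in Ctrl and at 53.8, 31.7 and 26.8 FPKM in Sox2 cKO libraries. Its groups did not overlap, although the gap between Ctrl library 2 and Sox2 cKO library 5 was small. Fitted to the counts, C1qc had a log2 fold change of 0.65 (SE 0.21, adjusted p = 0.045 in edgeR and 0.0075 in DESeq2). An exact two-sided permutation test over the 6 libraries gave p = 0.1 for C1qc, the smallest that 3 against 3 allow, and p = 0.2 for C1qa and C1qb. Without Sox2 cKO library 1 the log2 fold changes were 0.30 for C1qa, 0.38 for C1qb and 0.33 for C1qc, and the adjusted p-values were between 0.12 and 0.18 in edgeR.

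The 3 C1q genes moved together from library to library. The level of C1qa was between 1.47 and 1.61 times that of C1qc in all 6 libraries (ratio of FPKM), and the level of C1qc was between 0.70 and 0.82 times that of C1qb. Across the 6 libraries the Pearson r of log2 normalized counts was 0.995 for C1qa with C1qc and 0.991 for C1qa with C1qb, and with group means removed it was 0.991 and 0.984. Among 11732 genes compared, C1qc was the gene most like C1qa. For C1qb, C1qc had rank 6 and C1qa rank 7, and for C1qc, C1qa had rank 2 and C1qb rank 4. These values describe 6 points, of which Sox2 cKO library 1 is far from the rest, and 105 genes had an r above 0.95 with C1qa. The genes outside the set with the highest r were Odf2 (0.993), Ctss (0.991) and P3h3 (0.988) for C1qa, Pafah2, Cavin3 and Wdr73 for C1qb, and Ddx58, Dcaf11 and Ctss for C1qc.

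Microglial markers were compared with C1q. Of the 16 microglia markers, edgeR called 3 higher and 0 lower (4 higher and 3 lower at an unadjusted p below 0.05). Among all genes edgeR called 12.2% higher and 12.4% lower. DESeq2 called 2 markers higher and 3 lower, where it called 12.9% of its tested genes higher and 2348 of 15425 lower. The median log2 fold change of the markers was 0.18 in edgeR. Without Sox2 cKO library 1 or without Ctrl library 6 edgeR called 0 of them higher (3 and 4 at an unadjusted p below 0.05), and with the length correction 1. In these fits, in that order, 0.0182%, 3.64% and 6.08% of all genes were called higher. At an unadjusted p below 0.05 were 4945 of 16482 genes without Sox2 cKO library 1 and 5035 of 16552 without Ctrl library 6, both directions together. Those called with all libraries were Tyrobp (log2 fold change 1.19, adjusted p = 0.022), the signalling adaptor of TREM2, Trem2 itself (0.74, adjusted p = 0.037) and Ctss (0.77, adjusted p = 0.041), which encodes the lysosomal protease cathepsin S, and without Sox2 cKO library 1 these were at 0.91, 0.46 and 0.41. Among the 13 not called by edgeR were 4 homeostatic markers, chosen after values were seen. In edgeR P2ry12 was at -0.06 (adjusted p = 0.71) and Tmem119 at -0.01 (adjusted p = 0.96). Cx3cr1 was at -0.37 (adjusted p = 0.053) and Csf1r at -0.38 (adjusted p = 0.072) in edgeR. DESeq2 called both Cx3cr1 and Csf1r lower (adjusted p = 0.021 and 0.030). Siglech, Gpr34, Fcrls and Olfml3 were at 0.17 to 0.20 in edgeR. The summed level of the list was 144 to 167 FPKM in Ctrl and 158 to 256 FPKM in Sox2 cKO libraries, and 0 of the 16 markers were listed at 0 in all libraries.

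Within each library, C1qb was therefore set against single microglial genes, some of them chosen after their values were seen. The ratio of C1qb to P2ry12 was 4.25, 3.67 and 3.15 in Ctrl and 9.94, 5.02 and 4.79 in Sox2 cKO libraries, without overlap. An exact two-sided permutation test gave p = 0.1 for this ratio, the smallest possible. The ratio of C1qb to Ctss was between 0.763 and 0.896 in all 6 libraries and overlapped between groups. C1qb thus stood higher against P2ry12 in every Sox2 cKO library and kept pace with Ctss. P2ry12 has 2338 bases, longer than C1qb with 1088 bases, so its ratio carries the trend with length as well, and the part of that trend was not tested. Markers of border macrophages, which also make C1q, were summed at 4.88 to 9.81 FPKM in Ctrl and at 11.0 to 17.7 FPKM in Sox2 cKO libraries. Of these 8 markers 2 were called higher, against 12.2% of all genes. The number was 0 without Sox2 cKO library 1, without Ctrl library 6 or with the length correction (2, 2 and 3 at an unadjusted p below 0.05). In those fits 0.0182%, 3.64% and 6.08% of all genes were called higher. Without Sox2 cKO library 1 and without Ctrl library 6, 4945 of 16482 and 5035 of 16552 genes had an unadjusted p below 0.05, both directions together. The part of these cells in the C1q levels was not tested.

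The C1q genes are among the short genes of the data, with lengths of 1040 (C1qa), 1088 (C1qb) and 1203 bases (C1qc). They lay in the shortest of 5 equal groups of genes by length, where 30.4% were called higher and the median log2 fold change was 0.30. With the length correction the log2 fold changes were 0.28 for C1qa (adjusted p = 0.30), 0.42 for C1qb (adjusted p = 0.18) and 0.34 for C1qc (adjusted p = 0.21) in edgeR. C1qb and C1qc thus lost their calls in that fit, and all 3 kept a positive difference. Over all 9 members, the median was 0.34 with the correction, against 0.00 over all genes, and 0 members were called in either direction (2 were higher and 0 lower at an unadjusted p below 0.05), beside 6.08% of all genes higher and 6.99% lower.

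**Figure D2:**
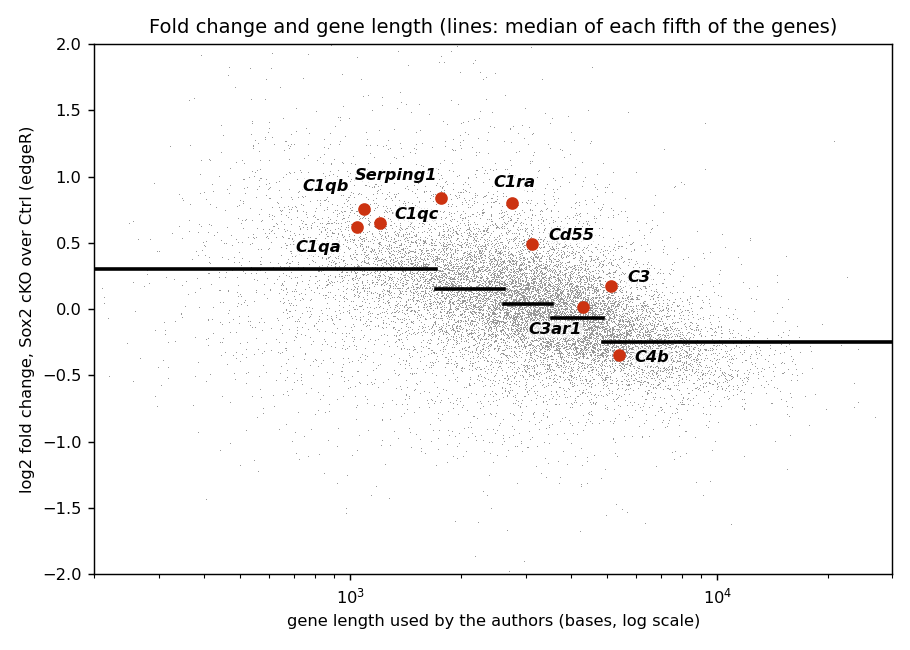
Log2 fold change (Sox2 cKO over Ctrl, vertical axis) against gene length (bases, log scale) for the genes tested (grey), with the 9 complement genes in red and the median of each of 5 length groups as black lines. The C1q genes sit above the line of the shortest group (0.30), and C3 and C4b lie on either side of the line of the longest group (-0.25); genes beyond the axis limits are not drawn.

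**Figure D3:**
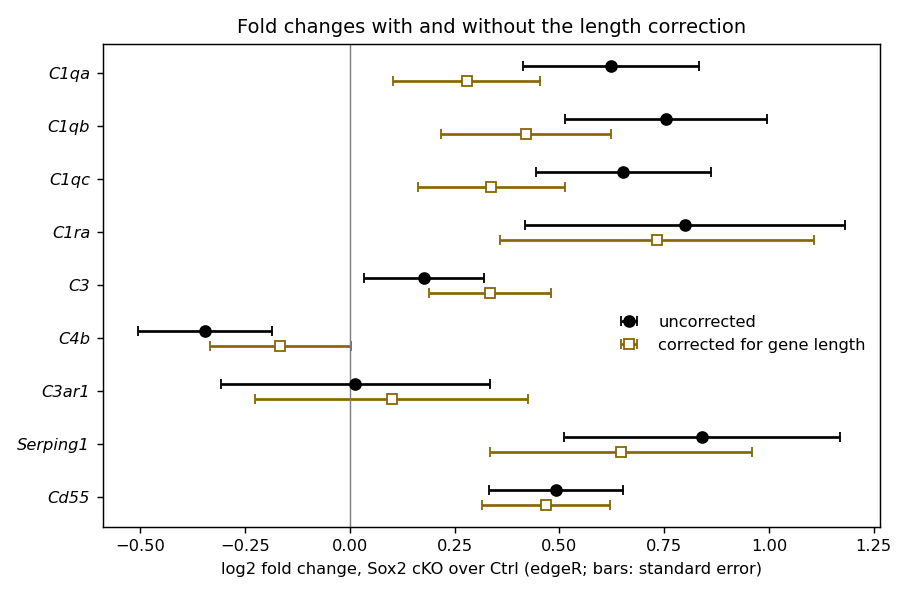
Log2 fold change with standard error for each complement gene, uncorrected (black) and corrected for gene length (open squares), horizontal axis in log2 units. The correction lowers C1qa from 0.62 to 0.28 and raises C3 from 0.18 to 0.34, and it leaves Cd55 at 0.47.

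C1ra, the protease gene, and Serping1, the gene of its inhibitor, had the largest fold changes of the set, at 1.74-fold and 1.79-fold, but neither was called by edgeR, with its filter on low counts, or by DESeq2 with all 6 libraries, and both moved most when Ctrl library 6 was left out. Serping1 was listed at 13.3, 11.4 and 3.73 FPKM in Ctrl libraries 2, 4 and 6 and at 21.7, 18.3 and 14.6 FPKM in Sox2 cKO libraries. Every Sox2 cKO library was above every Ctrl library, and Ctrl library 6 was far below the other Ctrl libraries. On the log2 scale the difference was 0.84 (SE 0.33, adjusted p = 0.085 in edgeR and 0.23 in DESeq2), and it was 0.47 (adjusted p = 0.072 in edgeR, 0.037 in DESeq2) without Ctrl library 6 and 0.65 (adjusted p = 0.18 in edgeR) with the length correction. EdgeR called it without Ctrl library 2 (adjusted p = 0.032) and without a filter on low counts (adjusted p = 0.018).

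C1ra had few reads, with counts of 52, 44 and 13 in Ctrl and of 84, 69 and 64 in Sox2 cKO libraries. These correspond to 0.842, 0.639 and 0.215 FPKM in Ctrl and 1.42, 0.883 and 0.889 FPKM in Sox2 cKO, again with the lowest value in Ctrl library 6 and no overlap between groups. The difference was 0.80 on the log2 scale (SE 0.38, adjusted p = 0.15 in edgeR) with all libraries. It was 0.43 (adjusted p = 0.32 in edgeR) without Ctrl library 6, and 0.73 (adjusted p = 0.20 in edgeR) with the length correction. Without Ctrl library 2 it was 1.16, which DESeq2 called (adjusted p = 0.032) and edgeR did not (adjusted p = 0.054). Of the 50-base windows in the C1ra transcripts, 48% also occur in its near-identical paralog C1rb. C1rb itself had 0, 0 and 3 counts in Ctrl and 0 in every Sox2 cKO library, and the C1ra values are uncertain by the reads that match both genes.

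Serping1 and C1ra followed each other. The level of Serping1 was between 15.3 and 20.7 times that of C1ra in all 6 libraries, and their r was 0.982 (0.971 with group means removed), the 17th highest of 11732 genes for Serping1. The genes outside the set most like Serping1 were Trub1 (0.997), Col4a5 (0.993), a basement membrane collagen, and Ptgds (0.991), which encodes a prostaglandin synthase of the meninges. Those most like C1ra were Fmod (0.999), a matrix proteoglycan that is on the fibroblast list, Cav1 (0.997) and E530011L22Rik (0.990).

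The fibroblast markers shared the low value of Ctrl library 6. Of the 12 markers, 0 were called by edgeR or DESeq2 in either direction (1 higher and 1 lower at an unadjusted p below 0.05 in edgeR). Their median log2 fold change was 0.37, and it was -0.01 without Ctrl library 6. In that fit edgeR called 3 of the 12 markers lower, and 480 of 16552 genes in all. Dcn, the matrix proteoglycan decorin, was listed at 26.7, 28.1 and 10.3 FPKM in Ctrl and 41.2, 35.9 and 29.3 FPKM in Sox2 cKO libraries, and Igf2 at 58.7, 51.8 and 17.1 FPKM in Ctrl and 75.3, 51.1 and 49.5 FPKM in Sox2 cKO libraries. Within libraries, in ratios chosen after values were seen, Serping1 was 0.218 to 0.226 times Igf2 in Ctrl and 0.288 to 0.358 times Igf2 in Sox2 cKO libraries, without overlap, while its ratio to Ogn overlapped between groups (0.783 to 1.05 in Ctrl and 0.959 to 1.18 in Sox2 cKO). Schwann cell markers were also lowest in Ctrl library 6 for 6 of 7 genes. The part of these cells in the Serping1 and C1ra levels was not tested.

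**Figure D4:**
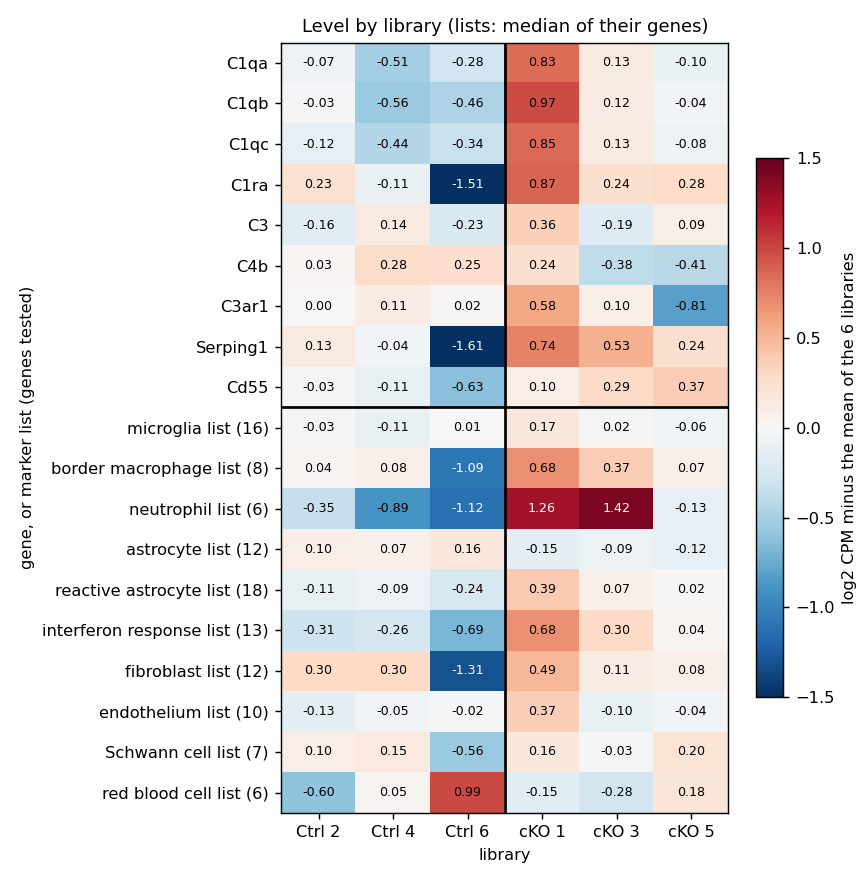
Centred level by library (colour and printed value) of the 9 complement genes, as log2(CPM + 0.1) minus the mean of the 6 libraries, and of cell type lists, as the median over their genes of centred log2 CPM with a prior count of 2. Ctrl library 6 is low for C1ra, Serping1, and the border macrophage and fibroblast lists (medians -1.09 and -1.31). Sox2 cKO library 1 is high for the C1q genes. The microglia list also has its highest median there, 0.17, with 9 of its 16 markers highest in that library.

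Cd55, the regulator on host cell membranes, was called higher in Sox2 cKO cord, at 1.41-fold. It was listed at 3.94, 3.61 and 2.45 FPKM in Ctrl libraries 2, 4 and 6 and at 4.59, 5.12 and 5.31 FPKM in Sox2 cKO libraries 1, 3 and 5. The groups did not overlap, and library 1 was the lowest of the Sox2 cKO libraries. The log2 fold change of Cd55 was 0.49 (SE 0.16, adjusted p = 0.047 in edgeR and 0.029 in DESeq2), and the exact permutation test gave p = 0.1, the smallest possible. Without Sox2 cKO library 1 the log2 fold change was 0.57 (adjusted p = 0.087), and without Ctrl library 6 it was 0.33 (adjusted p = 0.12 in edgeR). It was 0.47 with the length correction (adjusted p = 0.068 in edgeR). Cd55 has 3133 bases and lies in the middle of the 5 length groups.

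Reads of Cd55 could be shared with 2 annotated genes. Its paralog Cd55b holds 8% of the 50-base windows of Cd55 transcripts and was listed at no more than 0.0351 FPKM in any library. Gm16083 is an antisense gene that overlaps Cd55, and the strand setting of the read counting is not given in the sources used here, so reads of the pair may not have been told apart. The genes most like Cd55 over the 6 libraries were Sema4a (0.993), Sept6 (0.992) and G2e3 (0.991).

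C3, the component on which all complement pathways converge, differed between groups by less than the spread of the libraries. It was listed at 35.9, 42.7 and 32.3 FPKM in Ctrl and 54.7, 36.4 and 43.5 FPKM in Sox2 cKO libraries, and the groups overlapped. Its log2 fold change was 0.18 (SE 0.14, adjusted p = 0.38 in edgeR), and 0.03 without Sox2 cKO library 1. C3 is a long gene, 5136 bases, and in the longest of the 5 length groups 36% of the genes were called lower and 1.73% higher. With the length correction its log2 fold change was 0.34 (adjusted p = 0.14 in edgeR). The genes most like C3 were Ocln (0.992), Cchcr1 (0.987) and Cavin1 (0.978).

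C4b, the component cleaved by C1s, had the only negative log2 fold change of the set in the fit of all libraries, 0.787-fold, which was not called. It was listed at 16.9, 19.6 and 18.8 FPKM in Ctrl and 20.9, 13.3 and 12.7 FPKM in Sox2 cKO libraries. Libraries 3 and 5 of Sox2 cKO were below every Ctrl library, and library 1 was above them all in FPKM (in normalized counts, 106 CPM, it was just below Ctrl libraries 4 and 6). On the log2 scale the difference was -0.35 (SE 0.16, adjusted p = 0.13 in edgeR), and -0.59 without Sox2 cKO library 1, where edgeR did not call it (adjusted p = 0.066) and DESeq2 did (adjusted p = 6.1e-05). With the length correction it was -0.17 (adjusted p = 0.52 in edgeR).

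C3 and C4 are proteins of the same family, and the balance of their genes within libraries was examined after the values had been seen. The ratio of C3 to C4b was 2.12, 2.18 and 1.72 in Ctrl and 2.62, 2.75 and 3.42 in Sox2 cKO libraries, without overlap (exact two-sided permutation test, p = 0.1, the smallest possible). The length of C4b, 5379 bases, is close to that of C3. Of the 50-base windows of C4b, 34.6% are shared with C4a, which was listed at only 0.134 to 0.268 FPKM, and reads of the shared stretches leave both uncertain. The genes most like C4b were Sertm1 (0.988), Plxnd1 (0.983) and Zcchc4 (0.982).

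C3ar1, the receptor for C3a and known in myeloid cells, had means of 0.507 ± 0.0216 FPKM in Ctrl and 0.556 ± 0.268 FPKM in Sox2 cKO cord (SD, n = 3). It was listed at 0.507, 0.529 and 0.486 FPKM in Ctrl and at 0.821, 0.565 and 0.284 FPKM in Sox2 cKO libraries. Ctrl libraries were close to each other, and the Sox2 cKO libraries lay above and below all of them. Its log2 fold change was 0.01 (SE 0.32, adjusted p = 0.98 in edgeR), so the direction was not determined, and it turned to -0.34 without Sox2 cKO library 1. The genes most like C3ar1 were Otud4 (0.959), Bmf (0.958) and Zfp746 (0.955).

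**Figure D5:**
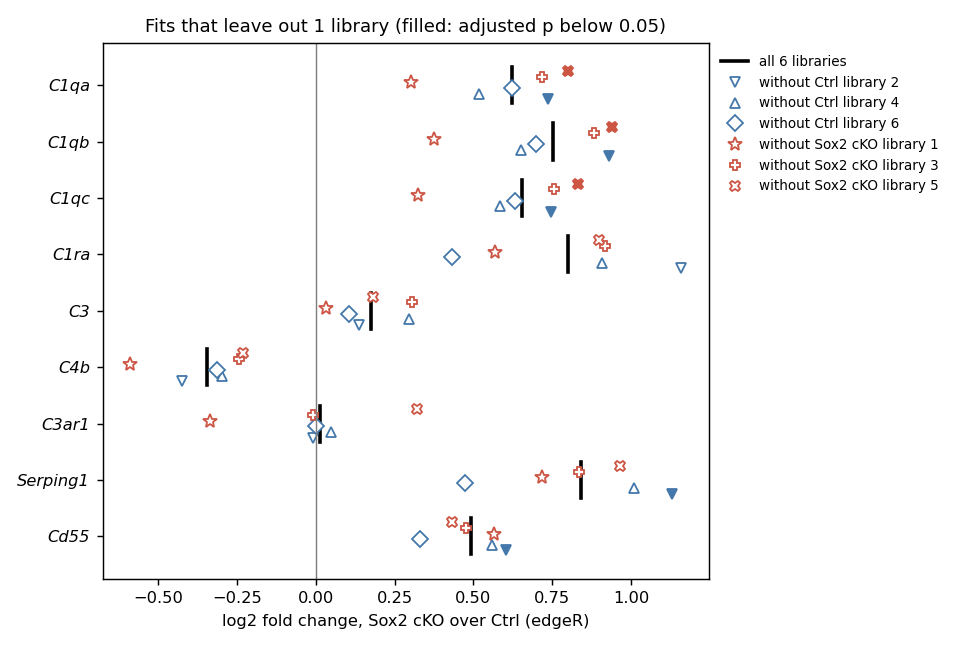
Log2 fold change of each complement gene in the edgeR fit of all 6 libraries (black bar) and in the 6 fits that each leave out a library (symbols; filled where the adjusted p was below 0.05). Leaving out Sox2 cKO library 1 moved C1qa to 0.30 and C4b to -0.59, and leaving out Ctrl library 6 moved Serping1 to 0.47 and C1ra to 0.43.

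Of 49 other genes of the complement pathway, 27 passed the filter on low counts, of which 2 were called higher and 3 lower (4 higher and 4 lower at an unadjusted p below 0.05), shares not above the 12.2% higher and 12.4% lower of all genes, and their median log2 fold change was 0.15. The other 22 did not pass the filter of edgeR, although DESeq2 called 1 of them, Cfd, higher, and Mbl1 and C9, of the lectin pathway and the membrane attack complex, were listed at 0 in all 6 libraries. The 2 called higher were Cfp and C5ar1. Cfp, which encodes properdin, the stabiliser of the alternative pathway convertase, was listed at 3.05, 3.25 and 2.42 FPKM in Ctrl and 5.03, 4.35 and 4.37 FPKM in Sox2 cKO libraries, without overlap (log2 fold change 0.55, SE 0.15, adjusted p = 0.029 in edgeR).

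C5ar1, the receptor of the peptide C5a, was listed at 0.333, 0.315 and 0.269 FPKM in Ctrl and 0.787, 0.596 and 0.497 FPKM in Sox2 cKO libraries (log2 fold change 0.92, SE 0.28, adjusted p = 0.040 in edgeR). Its groups did not overlap, and DESeq2 did not call it (adjusted p = 0.079). Both genes are known in neutrophils, and neutrophil markers were summed at 17.1 to 29.4 FPKM in Ctrl and at 37.5 to 126 FPKM in Sox2 cKO libraries, with 5 of 6 tested markers called higher, against 12.2% of all genes. Of these markers 0 were called higher without Sox2 cKO library 1 (5 at an unadjusted p below 0.05), 1 without Ctrl library 6 and 4 with the length correction. Among all genes the shares called higher in these fits were 0.0182%, 3.64% and 6.08%. Without Sox2 cKO library 1, 4945 of 16482 genes had an unadjusted p below 0.05, both directions together. The part of neutrophils in Cfp and C5ar1 was not tested. Neither gene was called without Sox2 cKO library 1 or without Ctrl library 6, nor with the length correction, where the log2 fold change of C5ar1 was 0.75, 0.86 and 0.82 and that of Cfp 0.50, 0.46 and 0.33.

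The 3 called lower were Masp1, Csmd1 and Csmd2. Masp1, a protease of the lectin pathway, was listed at 5.26, 5.43 and 4.64 FPKM in Ctrl and 3.58, 3.79 and 4.17 FPKM in Sox2 cKO libraries, without overlap. It fell by 0.51 on the log2 scale (SE 0.12, adjusted p = 0.018 in edgeR) and by 0.58 with the length correction (adjusted p = 0.021), the only call on the list that remained there. Without Sox2 cKO library 1 it was -0.44 (adjusted p = 0.076 in edgeR). Csmd1 (-0.47, adjusted p = 0.046) and Csmd2 (-0.34, adjusted p = 0.048), large membrane proteins that inhibit complement, are encoded by genes of 14182 and 12964 bases, and with the length correction their log2 fold changes were -0.01 and 0.10.

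The most abundant genes of the other roles were not called. Clusterin, the product of Clu, regulates the terminal pathway and was listed at 355 to 472 FPKM in Ctrl and 462 to 516 FPKM in Sox2 cKO libraries (log2 fold change 0.15, adjusted p = 0.30 in edgeR). Susd4, a membrane regulator, was at 30.1 to 31.5 FPKM in Ctrl and 32.7 to 36.4 FPKM in Sox2 cKO libraries (0.06, adjusted p = 0.61). The receptor subunit Itgam had a log2 fold change of -0.19 (adjusted p = 0.38) and C8g, of the membrane attack complex, 0.55 (adjusted p = 0.12). The C1 protease C1s1 (0.32, adjusted p = 0.56) and C2 (0.43, adjusted p = 0.43), partner of C4 in the classical convertase, were below 0.5 FPKM in every library.

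Complement genes were also set beside lists of other cell types and states. Of the interferon response list 8 of 13 genes were called higher. Sox2 cKO library 1 was highest for 10 of the 13 and for 7 of 9 complement genes, against 27.2% of all genes. It was also highest for 7 of 8 border macrophage, 13 of 18 reactive astrocyte, 7 of 10 endothelium and 9 of 16 microglia markers. Its share was lower in the other lists, such as 2 of 8 neuron, 1 of 8 oligodendrocyte and 0 of 12 astrocyte markers. Of the reactive astrocyte list 6 of 18 were called higher and 2 lower, and of the astrocyte list 1 of 12 was called higher and 5 lower, among them Gfap (log2 fold change -1.11, adjusted p = 0.010 in edgeR). Without Sox2 cKO library 1 edgeR called 0 genes of these 3 lists in either direction, with 7 interferon, 6 reactive astrocyte and 1 astrocyte genes higher, and 0, 2 and 6 lower, at an unadjusted p below 0.05. In that fit edgeR called 8 of 16482 genes in all, and 4945 had an unadjusted p below 0.05. Higher calls numbered 4 of 13 interferon and 1 of 18 reactive astrocyte genes without Ctrl library 6, where 3.64% of all genes were called higher. With the length correction they numbered 5 and 3, against 6.08% of all genes. Of the endothelium list 1 of 10 and of the neuron list 1 of 8 was called higher by edgeR. It called 0 of 8 oligodendrocyte, 7 Schwann cell and 6 red blood cell markers, beside 12.2% higher and 12.4% lower among all genes. At an unadjusted p below 0.05, 2 oligodendrocyte markers were lower in edgeR. DESeq2 called 3 oligodendrocyte markers lower, where it called 2348 of 15425 genes lower. Markers of neurons and oligodendrocytes were abundant in every library, such as Mbp at 2440 to 3383 FPKM.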

How the data were processed

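Poly(A) RNA of the spinal cord of 3 Sox2 cKO and 3 Ctrl mice was sequenced as single-end reads. The authors aligned them to mm10 with STAR (2.5) and counted reads per gene with HTSeq (0.6.1). The deposited counts are not normalized, and the deposited FPKM values were made by the authors from these counts, gene length and library total. The table columns carry numbers, not sample names. Columns ending in 2, 4 and 6 were taken as Ctrl and those in 1, 3 and 5 as Sox2 cKO, as in the request and the mouse numbers of the study's immunoblot. Group means formed this way matched those the study lists under the group names for 1999 of 1999 genes, and 0 matched when the groups were exchanged. Which mouse is which replicate is not known, and sex was not assigned. No library was a copy of another, as the chi-square per degree of freedom was at least 7.17 over all pairs.

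Counts were tested with edgeR 4.0.16 in R 4.3.3 (filterByExpr, TMM, quasi-likelihood test without covariates, Benjamini-Hochberg adjustment over 16137 genes, threshold 0.05). Standard errors were derived from the quasi-likelihood statistic. Alternatives were DESeq2 1.42.0, upper quartile normalization, no filter, at least 10 counts in every library, limma 3.58.1 on log2(FPKM + 1) and log2(FPKM + 0.1), a lowess correction (span 0.3) for gene length in each library, and fits that left out a library. The fits were tested on simulated data, except those with no filter and with at least 10 counts in every library. Likeness was the Pearson r of log2 TMM-scaled CPM over the 6 libraries, among genes with a mean of at least 5. The genes named were drawn from a fixed rule: all members, Sox2, pathway genes that passed the test, the most abundant pathway gene of each role, the 2 most abundant genes of each cell type list, the 3 genes most like each member, and near-identical or overlapping genes. Tmem119, P2ry12, Cx3cr1, Csf1r, Siglech, Gpr34, Fcrls, Olfml3, Trem2, Tyrobp, Ogn, Mbl1, C9 and Cfd were named after their values were seen. The members, lists and tests were chosen with earlier results of these data known. RNA integrity was above 6.8 per the labels and higher in the study's methods.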

Additional observations from a re-analysis of the deposited data

How the results depend on the processing

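All members except C3ar1 kept their direction in every alternative that gave a value. The log2 fold change of C3ar1, near 0, ranged from -0.351 to 0.321 over the edgeR and DESeq2 fits without 1 library, and that of Csmd2 turned to 0.0965 with the length correction. Of the members, 5 were called higher without a filter on low counts, 1 with limma at either pseudocount, 0 with the length correction, and 0 to 5 without a library, while 0 to 1 were called lower without a library. Of the pathway list, 0 were called higher with the length correction and 0 to 4 without a library; 1 was called lower with upper quartile normalization, with limma and with the length correction, and 0 to 4 without a library. Of all genes, the length correction called 981 higher and 1128 lower, limma called 915 lower (pseudocount 1) and 896 lower (pseudocount 0.1), and fits without a library called 3 to 3030 higher and 5 to 3089 lower. Fewer samples enter the fits without a library, and the cause of the other changes was not tested. No paired analysis was possible because the columns carry no replicate numbers. C1ra had no adjusted p in DESeq2 without Sox2 cKO library 1, and C5ar1 had no value with limma, whose filter on FPKM it did not pass, or in DESeq2 without Ctrl library 4 or 6 or Sox2 cKO library 1 or 3. Genes under 1 FPKM (C1ra, C3ar1, C5ar1) rest on the fewest reads.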

Other observations

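Cfd, the gene of complement factor D, an alternative pathway protease that is best known from fat tissue, was listed at 3.31 FPKM in Sox2 cKO library 5 and at no more than 0.403 FPKM in the other 5 libraries. It did not pass the filter on low counts of edgeR, while DESeq2, without that filter, called it higher (log2 fold change 3.01, adjusted p = 0.0088). The ratio of C4b to C4a within libraries was 85.0, 146 and 117 in Ctrl and 77.9, 51.8 and 61.6 in Sox2 cKO libraries, without overlap, with C4a near the lower end of what was counted.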
